A study of Homo sapiens with 5 samples.

Results

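Small Cajal body RNAs (scaRNAs) are nuclear non-coding RNAs, and their genes carry symbols that begin with SCARNA. Every gene with such a symbol in the deposited values was taken, which gave 6 of 2694 genes: SCARNA6, SCARNA7, SCARNA8, SCARNA9L, SCARNA12 and SCARNA16. They were measured by total RNA sequencing of TC28a2, a human chondrocyte cell line that the labels trace to costal cartilage, so the results describe a single line. The libraries fall into growth medium (GM, n = 2) and hypertrophic medium (HM, n = 3), with RNA collected on day 5. The comparison asks how the RNAs of chondrocytes differ between ordinary growth and a medium used to induce hypertrophy, the enlargement and matrix change that chondrocytes undergo in the growth plate. GM was DMEM-HG with 10% fetal bovine serum. HM was the same base with serum at 1% and the supplement ITS (insulin, transferrin and selenium) at 1%. It further contained the growth factors BMP-2 at 100 ng/ml and GDF-5 at 10 ng/ml, the thyroid hormone T3 at 1 µM, the glucocorticoid dexamethasone at 10 nM, ascorbic acid at 50 µg/ml and β-glycerophosphate at 10 mM. Both media contained antibiotics. Serum and all of these agents changed together, so their parts in any difference cannot be told apart.

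A scaRNA pairs with a spliceosomal small nuclear RNA (snRNA) and directs a modifying enzyme to a chosen base, in the Cajal body, a nuclear compartment where snRNA particles mature. RNAs of the C/D type, named for their C and D boxes, guide ribose methylation by fibrillarin, whereas RNAs of the H/ACA type guide pseudouridine formation by dyskerin, and some scaRNAs join both kinds of domain. Most human scaRNAs are cut out of introns of other genes, and H/ACA domains carry a short CAB box that the protein WRAP53 binds to bring the RNA to the Cajal body.

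The sequences are shown because they carry the boxes for which the types are named and let SCARNA9L be compared with its near copy. All are genomic sequences of GRCh37, written 5′ to 3′ on the strand of the gene. In the whole sequences, capitals mark every TGAG (a form of the CAB box), in SCARNA6 and SCARNA12 also the TGATGA near the 5′ end (the core of the C box) and the CTGA nearest the 3′ end (the D box), and in SCARNA8 and SCARNA16 the ACA placed exactly before the last 3 bases. SCARNA6 (U88) and SCARNA12 (U89) are mixed C/D and H/ACA RNAs directed at U5 snRNA, and SCARNA8 (U92, directed at U2 snRNA) and SCARNA16 (ACA47) are H/ACA RNAs.
SCARNA6: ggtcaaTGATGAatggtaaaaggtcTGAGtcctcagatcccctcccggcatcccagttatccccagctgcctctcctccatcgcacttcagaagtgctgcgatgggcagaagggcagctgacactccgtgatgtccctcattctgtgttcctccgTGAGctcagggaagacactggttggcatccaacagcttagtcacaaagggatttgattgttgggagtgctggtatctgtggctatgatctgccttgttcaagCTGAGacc
SCARNA12: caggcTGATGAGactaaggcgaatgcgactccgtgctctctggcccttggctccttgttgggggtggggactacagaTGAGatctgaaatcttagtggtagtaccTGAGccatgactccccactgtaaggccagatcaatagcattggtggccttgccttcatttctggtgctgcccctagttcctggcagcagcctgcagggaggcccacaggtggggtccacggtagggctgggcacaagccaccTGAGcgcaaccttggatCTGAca
SCARNA8: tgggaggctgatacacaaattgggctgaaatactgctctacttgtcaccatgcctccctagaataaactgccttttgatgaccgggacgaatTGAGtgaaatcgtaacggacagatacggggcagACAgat
SCARNA16: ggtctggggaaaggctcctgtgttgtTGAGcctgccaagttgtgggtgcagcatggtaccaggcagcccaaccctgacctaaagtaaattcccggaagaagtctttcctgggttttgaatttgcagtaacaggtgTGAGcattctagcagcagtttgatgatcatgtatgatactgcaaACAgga

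SCARNA7 (U90) is a C/D RNA directed at U1 snRNA, and SCARNA9L is a relative of SCARNA9, a C/D RNA directed at U2 snRNA. Their first and last 60 bases follow, with only the TGATGA and the last CTGA in capitals.
SCARNA7 first bases: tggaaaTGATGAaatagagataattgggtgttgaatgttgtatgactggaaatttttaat
SCARNA7 last bases: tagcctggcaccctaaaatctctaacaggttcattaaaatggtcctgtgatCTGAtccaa
SCARNA9L first bases: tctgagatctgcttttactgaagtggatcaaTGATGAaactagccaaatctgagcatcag
SCARNA9L last bases: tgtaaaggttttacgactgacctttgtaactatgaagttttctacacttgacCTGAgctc

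TGATGA began at base 7 in SCARNA6 and SCARNA7, at base 6 in SCARNA12 and at base 32 in SCARNA9L, and in these 4 genes the last CTGA ended within 5 bases of the 3′ end. In SCARNA8 and SCARNA16 an ACA stood before the last 3 bases, and their TGATGA lay further inside, at bases 76 and 156. The sequences used were shorter than the RefSeq lengths in SCARNA6 (265 against 266 bases), SCARNA16 (185 against 187) and SCARNA9L (344 against 348). Distances to the ends of these genes may be off by those few bases. TGAG was found 3 times in SCARNA6, 4 times in SCARNA12, 2 times in SCARNA16 and 1 time in SCARNA8. It was also found 6 times in SCARNA9L and 1 time in SCARNA7, so this word did not separate the types. The other marked words set SCARNA8 and SCARNA16 apart from the rest but did not separate the mixed RNAs from the C/D RNAs. In SCARNA6 the TGAG nearest the 3′ end overlaps the marked CTGA, and in SCARNA12 the TGAG nearest the 5′ end overlaps the marked TGATGA. These are matches of short words on the strand of the gene: of 323 windows of 265 bases in ATG16L1, the gene around SCARNA6, 82.0% held TGAG, 8.7% held TGATGA anywhere, 78.3% held CTGA anywhere and 3.1% held a CTGA that ended within 5 bases of the 3′ end. In windows of matching length around SCARNA7, SCARNA12 and SCARNA9L, TGATGA was found in 11.3%, 10.0% and 14.0%, and a CTGA that near the 3′ end in 3.3%, 5.0% and 2.0%, over 213, 20 and 50 windows. ACA before the last 3 bases was found in 2.6% of 379 windows of 131 bases in HAUS6, around SCARNA8, and in 4.2% of 71 windows of 185 bases in SNHG20, around SCARNA16. TGATGA was found in 2.6% and 9.9% of these same windows.

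SCARNA6 lies at chr2:234197322-234197586 on the plus strand, in an intron of ATG16L1, and SCARNA7 at chr3:160232695-160233024 on the minus strand, in an intron of KPNA4. SCARNA8 lies at chr9:19063654-19063784 on the minus strand, in an intron of HAUS6, and SCARNA12 at chr12:7076500-7076769 on the minus strand, within PHB2, where an exon of an annotated PHB2 transcript overlaps it. SCARNA9L was placed by matching SCARNA9 within EIF1AX, at chrX:20154185-20154528 on the minus strand in an intron. SCARNA16 was placed by matching its annotated copy within SNHG20, at chr17:75085391-75085575 on the plus strand, where it overlaps an exon of an SNHG20 transcript and lies in an intron of SEC14L1. None of these 7 surrounding genes was among the listed genes, so no scaRNA could be set beside its host transcript. In SCARNA12 and SCARNA16, reads of the overlapping exon may be included in the value.

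SCARNA9L and SCARNA16 have near copies. SCARNA9L and SCARNA9 on chromosome 11 shared 325 of 344 aligned bases (94.5%), and SCARNA9 was not listed. The stretch below shows 80 aligned bases of each, with the 9 that differ in capitals.
SCARNA9: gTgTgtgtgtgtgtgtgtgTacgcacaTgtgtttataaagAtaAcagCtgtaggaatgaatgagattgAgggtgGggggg
SCARNA9L: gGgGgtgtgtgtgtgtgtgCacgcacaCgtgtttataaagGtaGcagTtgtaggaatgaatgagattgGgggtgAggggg

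SCARNA16 had 3 other loci with at least 90% identity over at least 80% of its length, the closest at 91.9%, and it shares 77 of the 81 bases of the MIR6516 hairpin, which was not listed. How reads that match several loci were assigned is not given in the sources used here, so the values of SCARNA9L and SCARNA16 are uncertain. SCARNA6, SCARNA7, SCARNA8 and SCARNA12 had no other locus of that length match.

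The listed genes are not a sample of all genes. No listed gene had a difference between the media smaller than 0.21 on the log2 scale, 1707 were higher and 987 lower in HM, and 2694 genes are far fewer than a human annotation holds. They appear to be the genes that the authors called different on these same libraries. A SCARNA gene therefore had to differ to be listed, so the counts, p-values and separations given here describe the size of the differences against the spread of the libraries and are no independent evidence that they exist. Of 29 SCARNA genes in the RefSeq table, 23 were not listed, and nothing can be said of their values. At a length of at least 200 bases, 4 of 10 were listed, against 2 of 19 shorter ones. The share of all annotated genes that was listed was not determined, and the difference between lengths was not tested. These counts are therefore not read as a result about the scaRNAs.

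The values are described as log2-transformed and RLE-normalized, but how closely a plain logarithm of counts describes them is not known. The smallest listed difference grew with the value, from 0.21 in the lowest tertile of mean values to 0.45 in the middle and 0.55 in the highest. Differences of genes with low values may therefore be compressed. The study also names a fold-change threshold for its calls that the deposited differences of most listed genes do not reach, so differences may be understated at all values. A log2 difference was not turned into a fold change, and one under 1 need not mean a change of less than 2-fold. Read depth is not known for any library. Differences are HM minus GM, with adjusted p from limma over all 2694 listed genes. Lower values in bulk RNA can come from less RNA per cell or from fewer cells of a type, and these cannot be told apart.

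All 6 SCARNA genes were lower in HM with an adjusted p under 0.05 (limma), a call that 36.5% of the listed genes share in this direction and 62.5% have in the other. In each of the 6, every HM library lay below both GM libraries, as in 36.5% of the listed genes. Their median difference was -0.69, whereas the median over all listed genes was 0.56. With each library centred on its median, every difference moved by -0.35 and the SCARNA median was -1.04. The listed genes called higher then numbered 845, against 1683 in the values as deposited. SCARNA9L had the largest difference and SCARNA8 the smallest, and in the values as deposited only SCARNA9L fell by at least 1, a call made for 7.05% of the listed genes. This depends on the scaling and on the libraries kept. SCARNA6 also passed with each library centred on its median (-1.31), under quantile normalization (-1.38), without GM replicate 2 (-1.17) and without HM replicate 1 or 2 (-1.02 for each), and SCARNA12 passed under median centring (-1.09). SCARNA16 came to -1.0 under median centring after rounding but stayed just short of the cut.

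**Figure D1:**
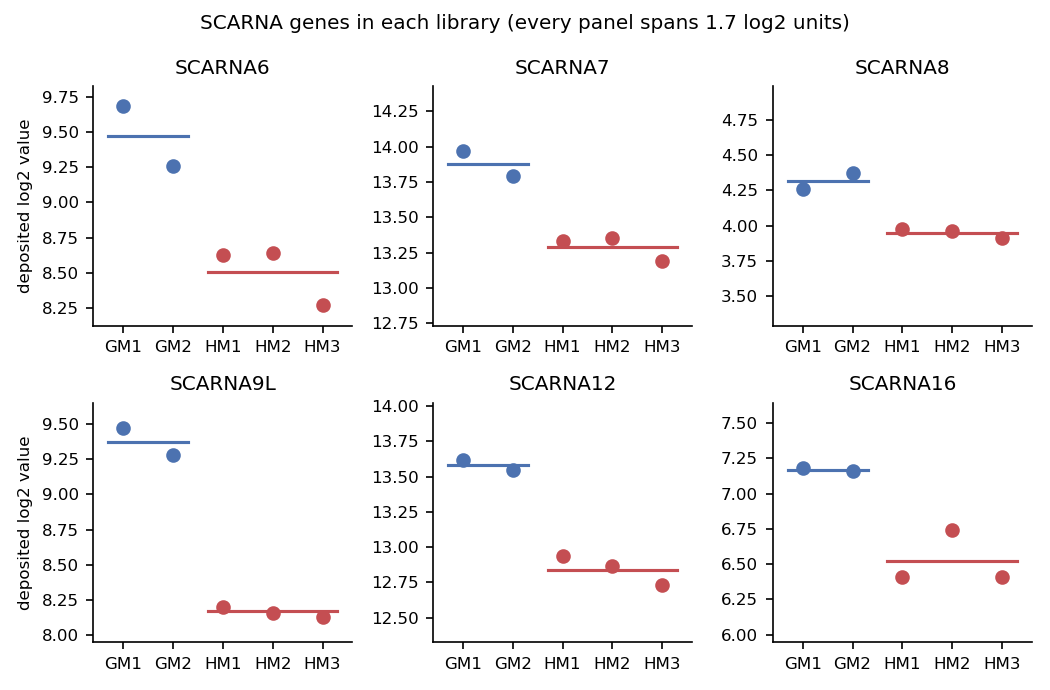
Deposited log2 values (vertical axis) of the 6 SCARNA genes in each library (horizontal axis), with GM in blue and HM in red and lines at the group means. Panels are centred differently but span the same range. No HM point reaches a GM point, and HM replicate 3 is the lowest or joint lowest HM point in each panel.

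Of the mixed RNAs, SCARNA6 had values of 9.68 and 9.26 in GM replicates 1 and 2, and of 8.63, 8.64 and 8.27 in HM replicates 1, 2 and 3. The GM libraries lay apart by 0.42 and the HM libraries by 0.37, yet a gap of 0.62 separated the media. The mean was 9.47 ± 0.30 (SD, n = 2) in GM and 8.51 ± 0.21 (SD, n = 3) in HM, and the difference was -0.96 (standard error 0.18, 95% confidence interval -1.38 to -0.55, adjusted p = 0.0013, limma). It had the widest interval of the 6 genes.

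SCARNA12 stood at 13.62 and 13.55 in GM and at 12.94, 12.87 and 12.73 in HM. Both groups were narrow, and the media were separated by 0.61. Its means were 13.58 ± 0.053 (SD, n = 2) in GM and 12.84 ± 0.11 (SD, n = 3) in HM, a difference of -0.74 (standard error 0.11, 95% confidence interval -1.0 to -0.48, adjusted p = 0.000564, limma). The intervals of SCARNA6 and SCARNA12 overlap, and SCARNA6 minus SCARNA12, taken within each library, was -3.94 and -4.29 in GM and -4.31, -4.23 and -4.46 in HM. The groups overlap on this measure, so a different fall of the mixed RNAs was not seen beyond the spread.

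Of the C/D RNAs, SCARNA7 was 13.97 and 13.79 in GM, against 13.33, 13.35 and 13.19 in HM. All HM libraries were lower, with a gap of 0.44 to GM. The means were 13.88 ± 0.13 (SD, n = 2) and 13.29 ± 0.088 (SD, n = 3), with a difference of -0.59 (standard error 0.12, 95% confidence interval -0.86 to -0.33, adjusted p = 0.00151, limma). This lies at the edge of what was listed: of the 100 lower genes nearest to it in mean value, 99 fell more.

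SCARNA9L was 9.47 and 9.28 in GM, and 8.20, 8.16 and 8.13 in HM. The HM libraries were almost equal, and the gap of 1.08 between the media was the widest of the 6. The means were 9.37 ± 0.13 (SD, n = 2) in GM and 8.17 ± 0.034 (SD, n = 3) in HM, and the difference was -1.21 (standard error 0.14, 95% confidence interval -1.53 to -0.89, adjusted p = 0.000159, limma). Of the 100 lower genes nearest in mean value, 17 fell more. The near copy SCARNA9 limits this value, as reads of either gene may have been counted in it.

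The H/ACA RNAs had lower values. SCARNA8 was 4.26 and 4.37 in GM and 3.98, 3.96 and 3.91 in HM, the only one of the 6 genes in which GM replicate 2 was above replicate 1. The groups were separated by 0.28. The means were 4.32 ± 0.079 (SD, n = 2) and 3.95 ± 0.035 (SD, n = 3), and the difference was -0.36 (standard error 0.09, 95% confidence interval -0.56 to -0.17, adjusted p = 0.00326, limma). Its size was the smallest of the 6, but among the 100 lower genes nearest in mean value the median difference was -0.40, and 38 of them fell less.

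SCARNA16 was 7.18 and 7.16 in GM, and 6.41, 6.74 and 6.41 in HM. HM replicate 2 lay above the other HM libraries but 0.43 below GM. The means were 7.17 ± 0.010 (SD, n = 2) in GM and 6.52 ± 0.19 (SD, n = 3) in HM, with a difference of -0.65 (standard error 0.16, 95% confidence interval -1.02 to -0.28, adjusted p = 0.00442, limma). Of its 100 nearest lower genes by mean value, 63 fell more. For SCARNA12 and SCARNA6 these numbers were 50 and 32, so that the 6 genes spread over the range of lower genes with like values.

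Levels of different genes were compared after subtracting the log2 of the RefSeq length in kilobases. The subtraction treats the values as plain logarithms of counts, although they are not plain logarithms of whole counts. The levels and their order are therefore approximate. On this per-length scale, SCARNA7 and SCARNA12 stood highest, with mean levels of 15.48 and 15.47 in GM and 14.89 and 14.73 in HM. SCARNA6 followed with 11.38 in GM and 10.42 in HM, then SCARNA9L with 10.90 and 9.69, SCARNA16 with 9.59 and 8.94, and SCARNA8 with 7.25 and 6.88. The order of the means was the same in both media. SCARNA7 and SCARNA12 could not be ranked in GM: the per-length level of SCARNA7 minus that of SCARNA12 was 0.06 and -0.04 in the GM libraries, and it was 0.11, 0.19 and 0.17 in HM. Between the other neighbours in this order, the per-length levels differed in the same direction in all 5 libraries. The median per-length level in GM was 10.02 for the 74 listed SNORD genes and 10.21 for the 43 listed SNORA genes, which encode C/D and H/ACA small nucleolar RNAs (snoRNAs), the guides of ribosomal RNA modification. SCARNA6, SCARNA7, SCARNA9L and SCARNA12 were above both medians, and SCARNA8 and SCARNA16 were below. SCARNA8 and SCARNA16 are also the shortest of the SCARNA genes taken here, with RefSeq lengths of 131 and 187 bases. How well RNAs of such lengths were recovered in the libraries is not known, and the part of length in this order was not tested.

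A subtraction within each library removes any scaling of the whole library. SCARNA7 minus SCARNA9L was 4.50 and 4.51 in GM and rose to 5.13, 5.19 and 5.06 in HM. SCARNA9L thus fell by more than SCARNA7 in every HM library, though both are C/D RNAs. SCARNA6 minus SCARNA9L was 0.21 and -0.02 in GM and 0.42, 0.47 and 0.13 in HM, which overlap, so the fall of SCARNA9L could not be told from that of SCARNA6. SCARNA6 minus SCARNA7 went from -4.29 and -4.53 in GM to -4.71, -4.71 and -4.92 in HM, without overlap. SCARNA6 minus SCARNA16 was 2.51 and 2.1 in GM and 2.21, 1.9 and 1.86 in HM, which overlap. SCARNA9L minus SCARNA12 went from -4.15 and -4.27 in GM to -4.74, -4.7 and -4.59 in HM, without overlap. SCARNA9L minus SCARNA16 went from 2.29 and 2.12 in GM to 1.79, 1.43 and 1.73 in HM, without overlap. SCARNA12 minus SCARNA16, in contrast, was 6.44 and 6.38 in GM and 6.52, 6.13 and 6.32 in HM, and SCARNA7 minus SCARNA16 was 6.79 and 6.63 against 6.92, 6.61 and 6.78. These groups overlap, so neither gene could be separated from SCARNA16 by how far it fell. SCARNA7 minus SCARNA12 was 0.35 and 0.25 in GM and 0.39, 0.48 and 0.46 in HM. These groups do not overlap, but the highest GM value lies close to the lowest HM value. The confidence intervals of both differences overlap as well, so a larger fall of SCARNA12 was not established. Listed differences were smaller at low values, which limits the gaps with SCARNA16, and those with SCARNA8 are not given for the same reason. With 2 against 3 libraries, an exact permutation test cannot give a p below 0.1, so these gaps are given as values.

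HM replicate 3 was the lowest HM library in 6 of 6 SCARNA genes, at equal printed values in SCARNA16, compared with 31.0% of the lower listed genes. It was lowest in 60.8% of the SNORD genes and 48.8% of the SNORA genes. GM replicate 1 was above GM replicate 2 in 5 of 6 SCARNA genes and in 48.3% of the lower listed genes. Averaged over the 6 genes, each centred on its own mean, the libraries stood at 0.52 and 0.39 in GM and at -0.27, -0.23 and -0.41 in HM. The step between the media was wider than the spread within either medium. Without HM replicate 3, all 6 genes were still called lower, with a median difference of -0.64.

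The other listed small RNA genes with guide functions also had lower values. These genes are short, with median RefSeq lengths of 75 bases for SNORD and 133 for SNORA. Reads of their host transcripts may be included in the values, and the part of such reads was not tested. All 74 SNORD genes and all 43 SNORA genes were lower in HM, each with an adjusted p under 0.05 (limma), and in each the media did not overlap. Of all listed genes 36.5% were called lower, and in 36.5% every HM library lay below both GM libraries. As 984 of the 987 lower listed genes were called, the calls add little once a gene is lower. The median difference was -0.58 for SNORD, from -0.90 to -0.29, and -0.64 for SNORA, from -1.03 to -0.24. Under quantile normalization 42 of the 43 SNORA genes were lower and called, and all SNORD genes were lower, 72 of them called. Without GM replicate 1, all were lower but 54 SNORD and 32 SNORA genes were called (limma). SNORA24 (-1.03), SNORA50C (-0.97), SNORA65 (-0.93), SNORA6 (-0.91) and SNORA12 (-0.88) fell most among SNORA genes. Among SNORD genes these were SNORD79 (-0.90), SNORD49A (-0.87), SNORD101 (-0.84), SNORD83A (-0.84) and SNORD14C (-0.81). The difference of SCARNA9L lay beyond that of every listed SNORD and SNORA gene, and the differences of the other 5 SCARNA genes lay within the SNORA range. Of the 21 listed microRNA genes 20 were lower, with a median difference of -0.35, and 19 were lower under quantile normalization.

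**Figure D2:**
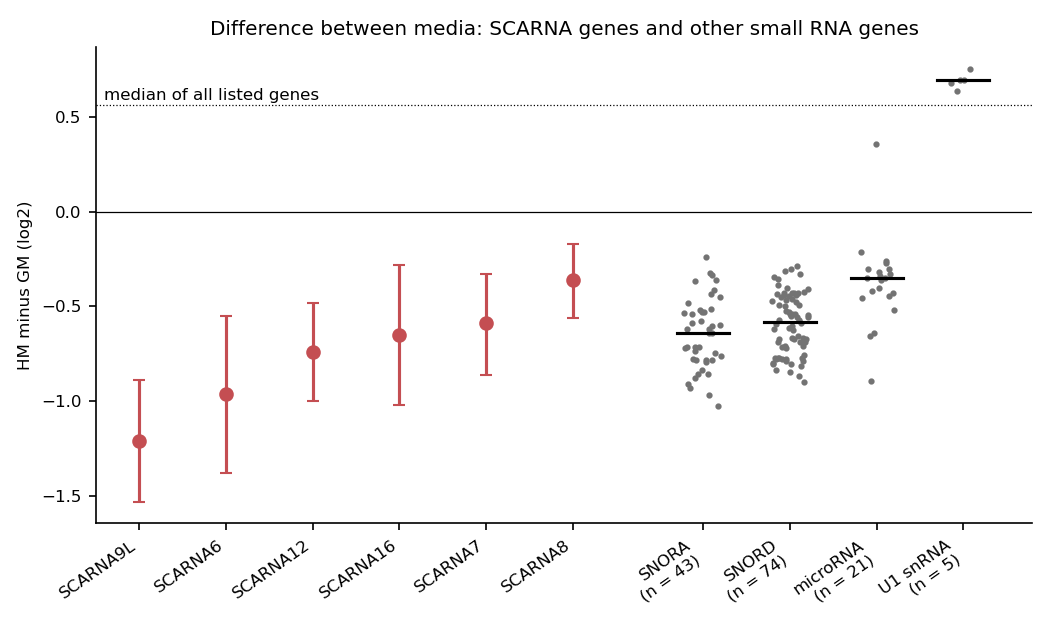
HM minus GM on the log2 scale (vertical axis) for each SCARNA gene, with 95% confidence intervals (limma), and for each listed SNORA, SNORD, microRNA and U1 snRNA gene as a grey point, with black lines at the class medians. The dotted line is the median of all listed genes, 0.56. The SCARNA genes run from -1.21 to -0.36, near the SNORA and SNORD points, while the 5 U1 genes are above 0.

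Set against the median SNORD value of the same library, SCARNA9L went from 3.13 and 2.98 above it in GM to 2.62, 2.41 and 2.57 in HM. Its distance to the SNORD median thus shrank in every HM library. The SNORD values are lower than that of SCARNA9L, and the lower genes of the whole list had a median difference of -0.54 in the lowest tertile of mean values and -0.79 in the middle tertile, which holds SCARNA9L, so the part of the value in this change was not tested. SCARNA8 went the other way, from -2.08 and -1.92 in GM to -1.60, -1.80 and -1.65 in HM, at values where listed differences were smaller in general. For SCARNA12 this distance was 7.28 and 7.25 in GM and 7.35, 7.11 and 7.17 in HM, and for SCARNA16 it was 0.84 and 0.87 against 0.83, 0.98 and 0.84. SCARNA6 and SCARNA7 overlapped between the media on this measure as well, so 4 of the 6 genes could not be told from the SNORD median in how they moved.

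**Figure D3:**
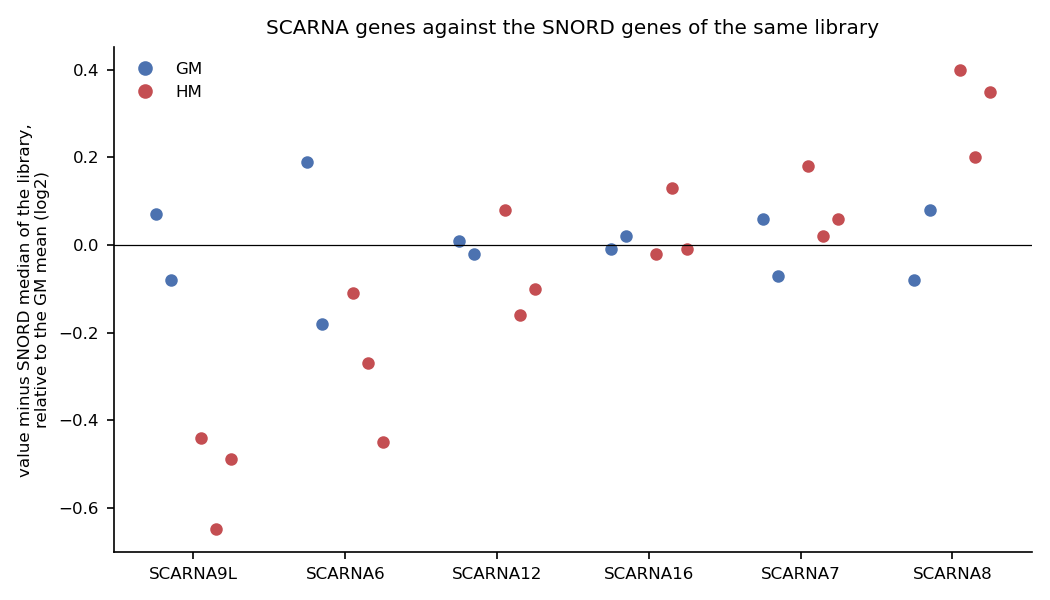
Value of each SCARNA gene minus the median of the 74 SNORD genes in the same library, shown relative to its mean in GM (vertical axis, log2), with GM libraries in blue and HM libraries in red. SCARNA9L is below its GM points and SCARNA8 above them in all HM libraries, and the other genes overlap.

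Of 23 genes for the snRNAs that scaRNAs modify, RNU1-1, RNU1-2, RNU1-3 and RNU1-4 were listed, and all 4 had higher values in HM. RNU1-1 was 6.81 and 6.77 in GM and 7.70, 7.71 and 6.88 in HM. HM replicates 1 and 2 were high, and HM replicate 3 was close to GM. Its difference was 0.64 (standard error 0.25, adjusted p = 0.0321, limma). RNU1-2, RNU1-3 and RNU1-4 had differences of 0.75, 0.69 and 0.68 with the same pattern over libraries, and in RNU1-4 the media overlapped. RNVU1-7, a variant U1 gene outside that list and named after its values were seen, had a difference of 0.69. The only other listed gene with an RNU symbol, RNU6-301P, whose symbol marks a U6 pseudogene and which is likewise named after its values were seen, went the other way. It was 3.68 and 3.75 in GM and 3.25, 3.43 and 3.26 in HM, a difference of -0.40. With the threshold on adjusted p under 0.05 alone, it was called in every setting in which it was fitted (limma). None of the 5 U1 calls was kept when each library was centred on its median, where the differences were 0.29 to 0.41 and adjusted p values 0.158 to 0.259 (limma). Quantile normalization kept 2. Without GM replicate 2 or without HM replicate 2 none was kept, without GM replicate 1 there were 3 and without HM replicate 1 there was 1, and without HM replicate 3 all 5 were kept, with differences of 0.91 to 1.06. The U1 genes are near-identical copies, so their separate values are uncertain.

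SCARNA7, whose target is U1, minus RNU1-1 was 7.16 and 7.02 in GM and 5.63, 5.64 and 6.31 in HM. The distance was smaller in all HM libraries, least so in replicate 3. This was not particular to SCARNA7: the value minus that of RNU1-1 was lower in HM without overlap in all 6 SCARNA genes, with differences from -1.84 for SCARNA9L to -1.0 for SCARNA8. RNU1-1 is listed as higher and the SCARNA genes as lower, so such a fall largely follows from the list itself. How many other lower listed genes share it was not determined. It is therefore not read as a relation between scaRNAs and U1. Whether modification of U1 differed was not tested, since these values hold no information on modified bases.

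The protein genes of the scaRNA pathway were nearly absent from the list. None of 30 genes for Cajal body and snRNP assembly proteins was listed, nor any of 8 H/ACA particle genes, 9 C/D particle genes, 22 Sm and LSm genes or 6 other single-copy non-coding RNA genes such as RMRP and TERC. A gene that is not listed may have had a smaller difference or a zero count, so this does not show that it was equal in both media. Of 19 genes for the snRNA-activating complex, which drives transcription of snRNA genes, and for Integrator, which cuts snRNA 3′ ends, SNAPC1 was listed. It was 13.50 and 13.56 in GM and 12.74, 12.59 and 12.71 in HM. All HM values were lower, with a difference of -0.85 (standard error 0.11, adjusted p = 0.000231, limma).

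**Figure D4:**
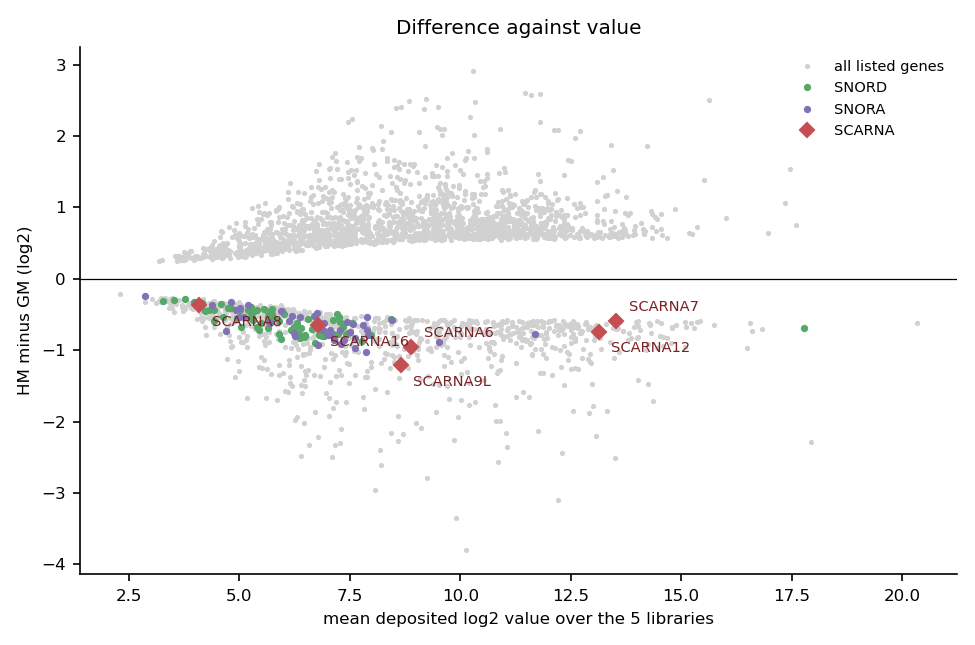
HM minus GM (vertical axis, log2) against the mean deposited log2 value over the 5 libraries (horizontal axis) for all 2694 listed genes in grey, with SNORD in green, SNORA in purple and SCARNA in red. The empty band around 0 shows that genes with small differences are not listed. SCARNA7 lies near its lower edge and SCARNA9L further from it.

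The listed genes most like the scaRNAs over the 5 libraries were found by the Euclidean distance between values centred on each gene's mean. Nearest to the mean profile of the 6 genes were SNORA62 (0.069), SNHG12 (0.078), SNHG1 (0.083), TRNN (0.084) and ADAMTS1 (0.086). SNHG1 and SNHG12 are host transcripts of snoRNAs, TRNN is a mitochondrial transfer RNA, and ADAMTS1 encodes a protease of the extracellular matrix. SNHG1 was 13.17 and 13.14 in GM and 12.39, 12.49 and 12.31 in HM, with a difference of -0.76. For single genes the nearest were LOC100288798 for SCARNA6 (0.182), SNORD24 for SCARNA7 (0.067), NKX2-3 for SCARNA8 (0.048), LOC91370 for SCARNA9L (0.092), TLL1 for SCARNA12 (0.071) and SNORD1C for SCARNA16 (0.036). SNORD1C had values of 5.87 and 5.85 in GM and of 5.13, 5.45 and 5.14 in HM, with the same raised HM replicate 2 as SCARNA16.

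Markers of cell identity moved between the same libraries. Of 16 chondrocyte genes 5 were listed, and SOX9, ACAN, COL2A1, COL9A2 and COL9A3 all had higher values in HM. COL2A1, the main collagen of cartilage, was 7.57 and 7.83 in GM and 9.50, 9.03 and 9.16 in HM, a difference of 1.53 (standard error 0.18, adjusted p = 0.000155, limma). SOX9, the chondrocyte transcription factor, had a difference of 0.65, whose adjusted p of 0.0027 became 0.0525 with each library centred on its median (limma). Of 9 hypertrophic genes 3 were listed: MMP13 and PTH1R had differences of 0.70 and 1.06, VEGFA fell by 0.78, and the call of MMP13 was lost under median centring (adjusted p = 0.116, limma). RUNX2, COL10A1 and IHH were not listed.

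Of markers for other cell types, 3 of 5 smooth muscle genes were listed (ACTA2 with 1.56, TAGLN with -0.81 and CNN1 with -1.32), 2 of 5 epithelial genes (CDH1 with 0.44 and KRT18 with -0.81), 1 of 4 osteoblast genes (PHEX with 0.79) and 0 of 5 adipocyte genes. With each library centred on its median the calls of CDH1 (0.09, adjusted p = 0.581, limma) and PHEX (0.44, adjusted p = 0.0501, limma) were lost. The smooth muscle genes moved in both directions. Of 20 cell cycle genes MKI67 was listed, with 14.21 and 14.03 in GM and 14.64, 15.07 and 14.76 in HM. Its difference of 0.70 had an adjusted p of 0.00199, and of 0.0859 with each library centred on its median (limma). Some listed cell cycle genes outside these 20, picked after their values were seen, were lower. CCND1 had a difference of -2.13, CDK6 of -0.90, TRIP13 of -0.76, MAD2L1 of -0.67, ORC6 of -0.66 and PBK of -0.66. CDKN2C, picked in the same way, was higher (0.56). As these genes come from no fixed list, no direction of growth was read from them. The part of cell state or growth in the lower scaRNA values was not tested.

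Genes of the mitochondrial genome, looked at after the values were seen, moved in both directions. Of 11 listed, 7 had higher means in HM and 4 lower ones. RNR2, a mitochondrial ribosomal RNA, was 9.73 and 9.30 in GM and 11.71, 11.23 and 9.97 in HM. As in the U1 genes, HM replicates 1 and 2 were high and HM replicate 3 was near GM. ND6 was 7.91 and 8.01 in GM and 7.01, 7.24 and 6.82 in HM, and TRNN was 6.03 and 5.85 against 5.16, 5.24 and 5.12, so these lay low in all HM libraries, as the scaRNAs did. HM replicate 3 was the lowest HM library in 10 of the 11 mitochondrial genes and in all 5 U1 genes. RNR2 belongs to the RNAs that the library kit is made to remove, and the part of library preparation in the scaRNA differences was not tested.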

How the data were processed

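The 5 TC28a2 libraries were made from total RNA by TruSeq Stranded Total RNA (Gold) preparation, which removes ribosomal RNA. According to the methods of the study, the authors used HISAT2 v2.1.0 for alignment to hg19, counted NCBI transcripts with StringTie v2.1, left out genes with a zero count and deposited log2 values after RLE normalization. The submitters' processing notes instead name TopHat2 2.0.13, Cuffdiff 2.2.1 and the rat build rn5, but the files hold human symbols. Within a library at most 1 value was repeated, so the log2 values are not plain logarithms of whole counts. Depth is unknown. Groups and replicate numbers came from the labels. The study calls its replicates biological in general, but the labels do not say whether these libraries of 1 cell line came from separate cultures, so p-values measure only the spread between them, part of which may be technical.

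HM was compared with GM by limma 3.58.1 (R 4.3.3; lmFit, eBayes with a trend) on all 2694 genes with Benjamini-Hochberg adjustment, after a test on simulated data. Because the listed genes appear selected for a difference, the spread that limma pools and every scaling over the list rest on selected genes. Members and lists were chosen with earlier results of these data known. Named genes were the SCARNA genes, their hosts, listed genes of the pathway lists, the 5 SNORA and 5 SNORD genes with the largest differences, and the nearest profiles. Exceptions are marked, and the comparisons by like mean value and over mitochondrial genes, and CTGA near window ends, were added after the values were seen. Positions came from GENCODE 44 lifted to GRCh37 or from BLAST+ 2.17.0 matches, lengths and names from the RefSeq table, and sequences were read with samtools 1.23.1. Python 3.11.15, pandas 2.3.3 and matplotlib 3.10.9 were used. Alternatives were no trend, median centring, quantile normalization, the replicate number as a block, leaving out each library, a filter on low values and stricter thresholds.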

Additional observations from a re-analysis of the deposited data

How the results depend on the processing

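Under every setting that kept the threshold on adjusted p alone, each SCARNA gene that was fitted stayed lower in HM with an adjusted p under 0.05 (limma), but all settings start from the same selected list. With a difference of at least 1 also required, SCARNA9L alone was called, so the count was 1, and SCARNA6 (-0.96), SCARNA7 (-0.59), SCARNA8 (-0.36), SCARNA12 (-0.74) and SCARNA16 (-0.65) were not, which follows from the threshold. Over the whole list 190 genes were then called lower and 318 higher. The filter on low values kept 1347 genes and 4 SCARNA genes, without SCARNA8 and SCARNA16, and gave 418 genes called lower, 926 called higher and a median SCARNA difference of -0.85. Fewer genes enter these numbers by construction. Centring each library on its median moved every difference by -0.35, gave a median SCARNA difference of -1.04 and left 845 genes called higher. Quantile normalization moved the median over all genes by -0.24.

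With each library left out in turn, SCARNA6 ranged from -1.17 to -0.75, SCARNA7 from -0.68 to -0.50, SCARNA8 from -0.42 to -0.31, SCARNA9L from -1.30 to -1.11, SCARNA12 from -0.79 to -0.68 and SCARNA16 from -0.76 to -0.59. The highest adjusted p was 0.0359, for SCARNA7 without GM replicate 1 (limma). Where 1 GM library remained, it was assumed to vary like the HM libraries.

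Replicates 1 and 2 of the media did not deviate together (correlation across genes -0.0253), so the numbers are no pairing. With the replicate number as a block (replicate block), the median SCARNA difference was -0.64, the 6 genes were called lower, and 980 lower and 1685 higher genes were called over the list. As HM replicate 3 has a block of its own, these differences equal those without HM replicate 3 and only the spread is estimated anew. SCARNA6 was -0.84, SCARNA7 -0.54, SCARNA8 -0.34, SCARNA9L -1.19, SCARNA12 -0.68 and SCARNA16 -0.59.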
